A study of Homo sapiens with 7 samples.

Results

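The genes described here are 45 translation initiation and elongation factors of the human genome, grouped in 6 complexes: the start codon and ternary complex (8 genes), eIF2B (5), eIF3 (13), eIF4F and its helpers (10), eIF5A and eIF6 (3), and eEF1 and eEF2 (6). They were listed by name, among 20037 protein-coding genes of GRCh38; no measured value enters the list, but it was proposed with results of these data known. Chromatin immunoprecipitation sequencing (ChIP-seq), which counts the DNA fragments bound by a protein, was used in DLD-1, an established colon adenocarcinoma line. All cells carried a retrovirus for MycER, a MYC protein fused to a hormone-binding domain that 4-hydroxytamoxifen switches on. The groups were MYC in cells with MycER activated for 8 hr by 500 nM of that drug (2 libraries), ATF4 in cells activated the same way (2 libraries) and ATF4 in control cells, which received vehicle per the protocol (2 libraries). No sample of the study held MYC of control cells, and the MYC values have no unactivated counterpart. The labels do not say whether the MYC antibody tells MycER from the MYC of the cells themselves. No group received the drug without MycER, and an effect of the drug cannot be told apart from activation. Whether the replicates were grown as separate cultures is not stated, and the spread between them may be technical.

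Translation initiation factors bring the small ribosomal subunit, the initiator tRNA and the capped mRNA together, and elongation factors then feed aminoacyl-tRNAs to the ribosome and move it along the message. MYC is a growth-promoting transcription factor that binds E-boxes, most strongly CACGTG, and genes of ribosomes and translation are among its best-known targets. ATF4 acts further along the integrated stress response, which begins when the initiation factor eIF2 is phosphorylated on its alpha subunit and eIF2B is held back.

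Each library came as a list of called peaks with a normalized tag count, here called tags, that the authors scaled to 10 M per library. The lists held 8636 and 22532 peaks in MYC replicates 1 and 2, 1270 and 2231 in ATF4 activated replicates 1 and 2, and 916 and 1579 in ATF4 control replicates 1 and 2. Replicate 1 libraries held 21.0 to 24.9 M reads and replicate 2 libraries 49.8 to 50.3 M, so depth follows the replicate number. A tag stood for 2.10 reads in MYC replicate 1 and for 5.01 in MYC replicate 2, and the weakest listed peaks had 3.8 and 2.39 tags. A gene without a listed peak may still be bound below these limits. Peaks hold no RNA and do not identify the cell type: MYC peaks of both libraries lay at 6 of 10 colon epithelium genes, 0 of 5 blood cell genes, 1 of 5 fibroblast genes and 1 of 5 neuron genes, beside 24.7% of all protein-coding genes. In replicate 2 alone they lay at 8, 4, 1 and 3 of these, beside 54.5%, so that library did not separate colon from blood cell genes. Peaks were assigned to a gene when their centre lay inside its span or within 5 kb of it.

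MYC peaks lay at 41 of the 45 translation factor genes in at least 1 library, beside 55.8% of all protein-coding genes, and at 21 (46.7%) in both, beside 24.7% of all. In MYC replicate 1, 22 of the 45 genes had a peak, beside 25.9% of all genes. In the deeper MYC replicate 2, 40 had a peak, beside 54.5% of all genes. No test was made of these shares. The translation factor genes were not longer than others, with a median span of 17.7 kb against 24.1 kb over all protein-coding genes. Of the same genes 0 of 45 had an ATF4 peak in both activated libraries, beside 1.41% of all genes, and 0 in both control libraries, beside 0.624%, backgrounds so low that 0 of 45 does not set these genes apart.

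**Figure D1:**
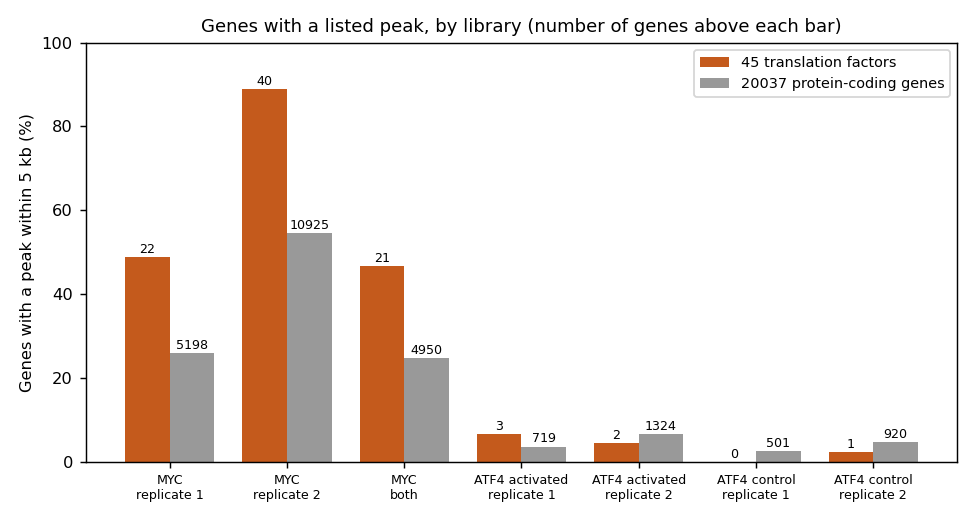
Share of genes (y axis, percent from 0 to 100) with a listed peak within 5 kb, by library (x axis), for the 45 translation factors (orange) and all 20037 protein-coding genes (grey), with the number of genes above each bar. The MYC bars of the translation factors stand above the grey bars in replicate 1 (22 genes), replicate 2 (40) and both (21), and the ATF4 bars hold 3, 2, 0 and 1 genes.

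Of the 45 genes, 19 had a MYC peak in replicate 2 only, beside 29.8% of all genes, and their strongest peaks had between 3.19 and 10.4 tags with a median of 5.39, where all peaks of that library had a median of 4.99. For 4 of them (EEF1A2, EIF1B, EIF2B2 and EIF3A) the value lay below the lowest tag count listed in replicate 1, 3.8. EIF2B2 lay only just below it, at 3.79. No peak that weak was listed in replicate 1, though the lowest listed value is not a known calling limit. Only EIF1 had a peak in replicate 1 alone, beside 1.24% of all genes. EIF3C, EIF4G1, EIF4H and EIF5 had a peak in neither library, beside 44.2% of all genes. EIF3C has a near-identical copy in the genome, so reads there may have been lost and its value is uncertain. Beyond the 5 kb limit, the nearest listed MYC peaks were 9856 bp from EIF5 (3.79 tags, replicate 2), 15063 bp from EIF4G1 (2.99 tags, replicate 2) and 23989 bp from EIF4H (9.18 tags, replicate 2).

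The 21 genes with MYC in both libraries had a median strongest peak of 10.4 tags, as the mean of both libraries, while the 4950 protein-coding genes with MYC in both had 7.88. The medians were 7.13 and 12.6 tags in replicates 1 and 2 for the translation factors, and 6.18 and 9.58 for all genes. Replicate 2 gave the higher value at 18 of the 21 (85.7%), beside 87.8% of the 4950. The offset between replicates is therefore shared by most genes, and the errors given below as SD over 2 libraries contain it. In replicate 1, EIF2B3, EIF4A2, EIF5A2 and EIF5B had 4.28 tags, as had EIF1, which replicate 2 did not list. Only 0.683% of the peaks of replicate 1 lay lower, so these values stand near the floor of that list.

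The DNA beside the starts was read from RefSeq sequence of GRCh38.p14 in windows from 250 bases before to 50 after each annotated start, which were at hand for 37 of the 45 genes. EEF1A2, EEF1D, EIF2S2, EIF3A, EIF3E, EIF3G, EIF3H and EIF3L were not in that table. The E-box CACGTG, which reads the same on both strands, occurred in the windows of 10 of the 37 genes (27%), against 10.9% of 15843 protein-coding genes and 8.34% of 22199 promoter windows. The related letters CACGCG or CGCGTG occurred at 7 of 37 (18.9%), against 18.1% of genes. The letters TGATGNAA, or TTNCATCA on the other strand, a composite element that ATF4 binds, occurred at 0 of 37 and at 3.6% of genes. CACGTG and CACGCG share their first 4 letters, and no match counts for both. A match describes the sequence and does not show binding.

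The 250 bases before the start are shown for the genes where E-boxes and MYC regions could be set side by side most clearly, with E-boxes in capitals. EIF4E encodes the cap-binding factor, and its stretch is chr4:98929134-98929383 on the minus strand. EIF5A2 encodes a paralog of eIF5A, and its stretch is chr3:170908638-170908887 on the minus strand. EIF4G1 encodes the main scaffold of the cap complex and had no MYC peak, and its stretch before the most upstream of its starts is chr3:184314356-184314605 on the plus strand.
EIF4E: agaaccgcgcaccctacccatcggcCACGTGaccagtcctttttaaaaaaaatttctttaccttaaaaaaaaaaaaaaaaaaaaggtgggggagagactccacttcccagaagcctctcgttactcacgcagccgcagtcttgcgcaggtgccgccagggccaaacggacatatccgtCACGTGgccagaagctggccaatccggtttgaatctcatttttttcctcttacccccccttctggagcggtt
EIF5A2: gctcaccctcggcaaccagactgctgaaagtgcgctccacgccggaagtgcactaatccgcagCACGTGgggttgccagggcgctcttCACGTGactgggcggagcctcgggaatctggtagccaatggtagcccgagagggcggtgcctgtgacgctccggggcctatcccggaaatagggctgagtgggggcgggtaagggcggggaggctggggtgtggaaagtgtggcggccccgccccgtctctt
EIF4G1: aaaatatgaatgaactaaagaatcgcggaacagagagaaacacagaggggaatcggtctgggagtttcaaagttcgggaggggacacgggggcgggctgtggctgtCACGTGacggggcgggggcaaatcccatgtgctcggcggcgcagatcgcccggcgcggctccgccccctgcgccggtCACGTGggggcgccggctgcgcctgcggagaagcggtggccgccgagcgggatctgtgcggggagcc

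At EIF4E the E-boxes lay at -225 and -72 from the start. At EIF5A2 they lay at -187 and -162, and at EIF4G1 at -144 and -67. The next lines give 30 bases around the E-box of EIF2B3, which also lay under MYC of both libraries (chr1:44986757-44986786, minus strand), of EIF3K, under MYC of replicate 2 (chr19:38619073-38619102, plus strand), of EIF4B, the strongest of the cap complex genes (chr12:53006422-53006451, plus strand), and of EIF4H, without MYC (chr7:74174145-74174174, plus strand).
EIF2B3: gacagagggacaCACGTGtcgaatgctcct
EIF3K: cgaggaagaagtCACGTGgcagccggaaag
EIF4B: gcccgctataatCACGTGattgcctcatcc
EIF4H: acgccgccgcacCACGTGggctgcagagcg

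The 10 genes held 13 E-boxes in these windows. Of these, 4 lay under a MYC region of both libraries, 1 under a region of 1 library and 8 under none. The 4 were those of EIF2B3 (32.5 bp from the centre of the region), EIF4E at -225 (28 bp) and EIF5A2 (31 and 56 bp). EIF4E's other E-box lay 181 bp from the nearest region's centre, and that of EIF4B 715 bp. EIF4G1 and EIF4H held E-boxes and no MYC peak. A MYC region of both libraries lay within 1 kb of the start at 4 of the 10 genes with an E-box and at 11 of the 27 without, so within the translation factors the E-box did not sort the genes with MYC at the start from those without. Over all genes these shares were 19.2% with and 9.88% without an E-box.

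Peaks of the 2 MYC libraries that overlapped by at least 1 bp were joined into regions, and 29 regions with a peak in both libraries lay at 21 translation factor genes. Where the start was annotated, 20 of 27 lay within 1 kb of the gene's own start, 12 of them downstream and 8 upstream, and the median distance over the 27 was 283.5 bp. Such a region lay within 1 kb of a start at 15 of 37 genes (40.5%), beside 10.9% of 15843 genes. An ATF4 region of both activated libraries did so at 0 of 37 genes, beside 0.202% of the 15843. For 8 of the 29 regions the end of another gene lay within 1 kb, so the gene they serve cannot be told apart from the neighbour. Replicate 2 was higher than replicate 1 at 26 of the 29, with a median ratio of 1.62. Over all 6313 such MYC regions it was higher at 84.0%, with a median ratio of 1.39. The positions below are those of hg38, and the annotation gives gene spans without exons.

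**Figure D2:**
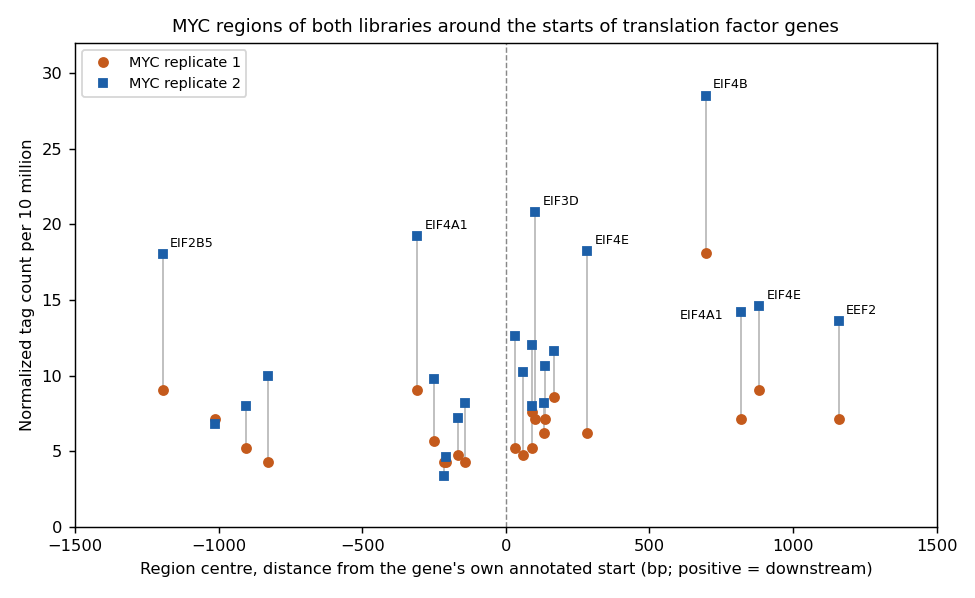
MYC regions of both libraries by the distance of their centre from the gene's own start in bp (x axis, positive downstream) and their normalized tag count per 10 M (y axis), with orange circles for MYC replicate 1 and blue squares for MYC replicate 2, joined by a grey line per region. The plot holds 23 regions within 1500 bp; 4 lay farther away and 2 had no annotated start, and EIF4B stands highest with 18.1 and 28.5 tags downstream of its start.

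eIF4F and its helpers had MYC in both libraries at 6 of 10 genes (60%), beside 24.7% of all genes, and in replicate 2 at 8, beside 54.5%. EIF4B, which stimulates the eIF4A helicase, had 18.1 and 28.5 tags in MYC replicates 1 and 2 (mean 23.3 ± 7.35, SD, n = 2), ranking 150 of 8636 and 79 of 22532 peaks. Its region (chr12:53007045-53007258) lay inside the gene, 695.5 bp downstream of the start. Both libraries placed EIF4B well above the typical translation factor.

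EIF4E had 3 regions of both libraries around its start, the most of any of the 45 genes together with EIF4A1. They had 5.70 and 9.78 tags 250.5 bp upstream (chr4:98929295-98929472, over the E-box at -225 shown above), 6.18 and 18.2 tags 283.5 bp downstream (chr4:98928753-98928946) and 9.03 and 14.6 tags 882.5 bp downstream (chr4:98928118-98928383). The region over the E-box was the weakest of the 3 in both libraries. EIF4E2, a cap-binding paralog that acts as a repressor, was listed in replicate 2 only, with 6.99 tags.

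The eIF4A helicases, which unwind the leader of the mRNA, ranged widely. EIF4A1 had regions 308 bp upstream (chr17:7572429-7572605, 9.03 and 19.2 tags), 818 bp downstream (chr17:7573555-7573731, 7.13 and 14.2 tags) and past its other end (chr17:7583554-7583743, 9.03 and 19.6 tags). The last lay 4642.5 bp beyond EIF4A1 and 1.5 bp from the end of MPDU1, a sugar-lipid factor of glycosylation, so the value that ranks highest for EIF4A1 sits at the neighbour's end. The upstream region of EIF4A1 lay 548 bp from the end of SENP3, another neighbour. EIF4A3, a core part of the exon junction complex rather than of initiation, had 14.7 and 16.4 tags (15.6 ± 1.2, SD, n = 2) 4846 bp upstream of its start (chr17:80151875-80152073), just inside the 5 kb limit. EIF4A2, a close paralog of EIF4A1, had a weak region 207.5 bp upstream (chr3:186783273-186783466) with 4.28 and 4.59 tags. These were 3.09 and 3.31 times the tags of the background library, where all MYC peaks had medians of 9.26 and 7.78. EIF4A1 and EIF4A3 did not overlap EIF4A2 in either library.

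The eIF4G scaffolds also differed. EIF4G3 had 5.23 and 7.98 tags 90 bp downstream of its start (chr1:21176714-21176900). EIF4G2, an eIF4G relative that lacks the part that binds eIF4E, had 5.19 tags in replicate 2 only. EIF4G1 had no MYC peak, as did EIF4H, a helper related to EIF4B.

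**Figure D3:**
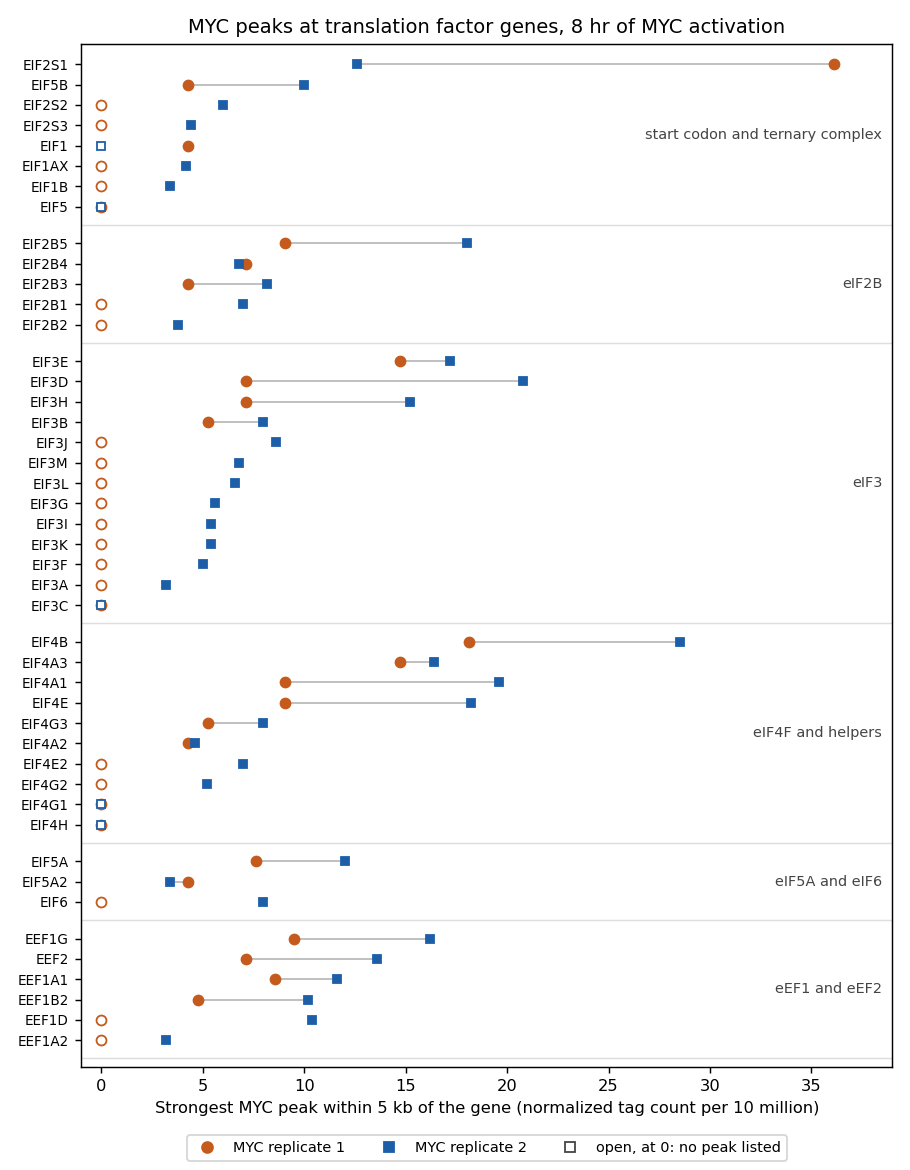
Strongest MYC peak within 5 kb of each of the 45 genes (x axis, normalized tag count per 10 M), by complex (rows), with orange circles for MYC replicate 1, blue squares for MYC replicate 2 and open symbols at 0 where a library listed no peak. EIF4B, EIF4A3 and EIF3E stand at 14.7 tags or more in both libraries, EIF2S1 reaches 36.1 in replicate 1 alone, and most genes of eIF3 have a blue square and an open circle.

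eIF3, the large scaffold that holds the initiation complex together, had MYC in both libraries at 4 of 13 genes (30.8%), near the 24.7% of all genes, and in replicate 2 at 12 (92.3%), beside 54.5%. EIF3E, a peripheral subunit, had 14.7 and 17.2 tags (15.95 ± 1.77, SD, n = 2) in 1 region (chr8:108248437-108248686). Its fold over background in replicate 2, 148.61, was the highest of the translation factor regions, over only 0.5 background tags. In replicate 1 its fold was 63.79, below the 78.2 of the EIF4A1 region at MPDU1. The EIF3E region lay 155.5 bp inside an end of the gene. EIF3D, a subunit that can itself bind the cap of some mRNAs, had 7.13 and 20.8 tags 102.5 bp downstream of its start (chr22:36528939-36529188) (13.97 ± 9.67, SD, n = 2). EIF3B, a core subunit, had 2 regions upstream of the nearest annotated start, with 4.75 and 7.18 tags at 166 bp (chr7:2354573-2354749) and 5.23 and 7.98 tags at 905 bp, inside SNX8, a sorting nexin (chr7:2353834-2354010). The end of SNX8 lay 164 bp from the first of these regions, about as near as the start of EIF3B.

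EIF3H, another peripheral subunit, had its strongest peaks at different places, 7.13 tags in replicate 1 inside the gene and 15.2 in replicate 2 beyond its end. Only the inner region (chr8:116755612-116755801) was listed in both, with 7.13 and 5.99 tags. The outer peaks of 5.23 and 15.2 tags did not overlap and lay inside UTP23, a ribosome biogenesis gene. The 8 eIF3 genes listed in replicate 2 only (EIF3A, EIF3F, EIF3G, EIF3I, EIF3J, EIF3K, EIF3L and EIF3M) had 3.19 to 8.58 tags. The EIF3A peak had only 1.97 times the tags of the background library. It lay 2813 bp outside the gene, inside NANOS1. The EIF3L peak lay 136 bp outside its gene, inside ANKRD54. EIF3J, at 8.58 tags, exceeded the replicate 2 value of EIF3B (7.98) and of the shared EIF3H region (5.99), so the 8 genes did not all lie below the eIF3 genes with MYC in both libraries.

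eIF2B, the exchange factor that reloads eIF2 with GTP, had MYC in both libraries at 3 of 5 genes (60%), beside 24.7% of all genes, and in replicate 2 at all 5, beside 54.5%. EIF2B5, the catalytic epsilon subunit, had 9.03 and 18 tags (13.5 ± 6.34, SD, n = 2) 1194 bp upstream of its start (chr3:184134076-184134252). EIF2B4, the delta subunit, had 7.13 and 6.79 tags 1013.5 bp upstream, inside SNX17, another sorting nexin (chr2:27371257-27371446). EIF2B3, the gamma subunit, had 4.28 and 8.18 tags 144 bp upstream (chr1:44986613-44986865), over the E-box printed above. EIF2B1 and EIF2B2, the alpha and beta subunits, had 6.99 and 3.79 tags in replicate 2 only. EIF2B5 lay above EIF2B3 and EIF2B4 in both libraries and above EIF2B1 and EIF2B2 in replicate 2, where alone they were listed.

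Among the 8 genes of the start codon and ternary complex, 2 (25%) had MYC in both libraries, EIF2S1 and EIF5B, a share near the 24.7% of all genes, and 6 (75%) had it in replicate 2, beside 54.5%. EIF5B, the GTPase that joins the large subunit, had 4.28 and 9.98 tags 829 bp upstream (chr2:99336465-99336655), and the end of TXNDC9, a thioredoxin-like protein, was nearer, at 227 bp. EIF1, which guards start codon choice, had 4.28 tags in replicate 1 only, 841 bp downstream of its start. EIF1B, its paralog, had 3.39 tags in replicate 2 only. EIF1AX, the scanning factor eIF1A of the X chromosome, and the beta and gamma subunits EIF2S2 and EIF2S3 had 4.19, 5.99 and 4.39 tags in replicate 2 only. EIF5, the GTPase activator of eIF2, had no MYC peak.

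EIF2S1, the alpha subunit whose phosphorylation starts the integrated stress response, had the highest value of all 45 genes, 36.1 tags in replicate 1, but replicate 2 gave 12.6. The values come from different places. Replicate 1 listed peaks of 22.3, 4.28, 13.3, 16.2 and 36.1 tags at 4582, 14135, 16178, 22186 and 23404 bp downstream of the start, inside the gene, and replicate 2 listed none of these. At the start itself (chr14:67360208-67360509) both libraries had a peak, with 5.23 and 12.6 tags. That region lay inside GPHN, with the end of ATP6V1D 554.5 bp away. Without the peaks inside the gene, the mean of EIF2S1 was 8.92 tags instead of 24.35, which takes it from the highest of the 45 to below EIF5A.

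Such peaks were rare: of 2323 MYC regions listed in replicate 1 only, 71 reached 10 tags, and 4 of these 71 lay in EIF2S1. No other gene had 3 or more of them except GPHN, whose span contains EIF2S1. The peaks inside the gene had 6.17 to 31.69 times the tags of the background library. ATF4 libraries listed no peak there. What produced them was not tested.

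**Figure D4:**
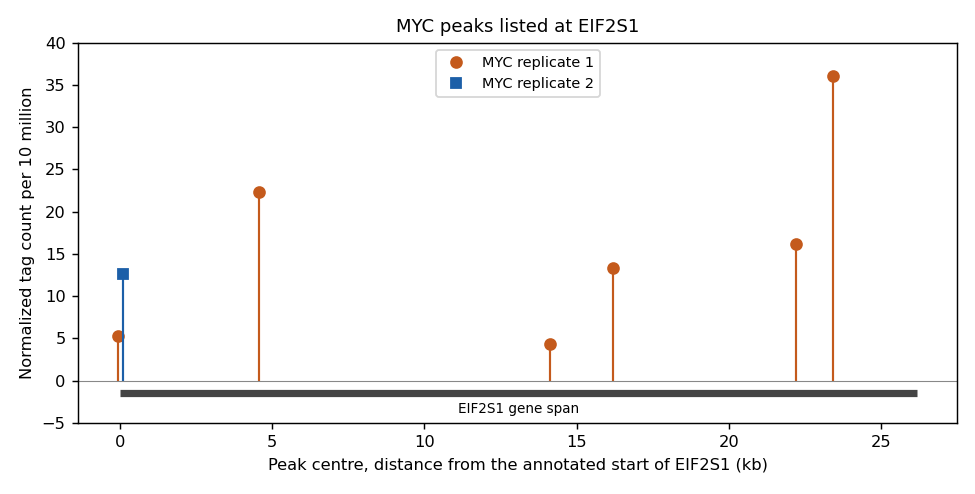
MYC peaks listed at EIF2S1 by the distance of their centre from the annotated start in kb (x axis) and their normalized tag count per 10 M (y axis), with orange circles for MYC replicate 1, blue squares for MYC replicate 2 and a dark bar for the gene span. Replicate 1 has 6 peaks, up to 36.1 tags, and replicate 2 has 1, of 12.6 tags, at the start.

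The elongation factors had MYC in both libraries at 4 of 6 genes (66.7%), beside 24.7% of all genes, and in replicate 2 at all 6, beside 54.5%. EEF1A1, which carries aminoacyl-tRNA to the ribosome, had 8.56 and 11.6 tags (10.1 ± 2.15, SD, n = 2) 168.5 bp downstream of its start (chr6:73520757-73520970) and 4.75 and 9.18 tags 2890 bp upstream (chr6:73523834-73524010). The region at the start had only 2.65 and 4.56 times the tags of the background library in replicates 1 and 2. The upstream region had 6.86 and 9.94 times, and all MYC peaks had medians of 9.26 and 7.78. EEF1A2, the EEF1A1 paralog of muscle and neurons, had 3.19 tags in replicate 2 only, the lowest replicate 2 value of the 45 genes together with EIF3A. EEF2, the translocase that moves the ribosome along the message, had 7.13 and 13.6 tags (10.4 ± 4.57, SD, n = 2) 1159 bp downstream of its start (chr19:3984168-3984440).

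The subunits of eEF1B, which exchange GDP for GTP on eEF1A, were EEF1B2, EEF1D and EEF1G. EEF1G had 9.51 and 16.2 tags (12.9 ± 4.73, SD, n = 2) in a region 2929 bp past the far end of the gene (chr11:62556579-62556755), and 7.13 and 10.6 tags 135 bp downstream of its start (chr11:62573668-62573844). The region at the start had only 2.57 and 2.86 times the tags of the background library, and the far region 20.58 and 14 times. EEF1B2 had 4.75 and 10.2 tags 61 bp downstream of an annotated start (chr2:206159868-206160044), with the end of NDUFS1, a respiratory chain subunit, 512 bp away. EEF1D had 10.4 tags in replicate 2 only, the highest of the genes listed in that library alone. The 5 kb limit decided its state, because a peak of 24.7 and 41.5 tags in replicates 1 and 2 lay 5594 and 5586 bp outside its span.

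The group of eIF5A and eIF6 had MYC in both libraries at 2 of 3 genes (66.7%), beside 24.7% of all genes. In replicate 2 it had MYC at all 3, beside 54.5%. eIF5A, which helps the ribosome through stretches such as runs of proline, had MYC at both of its genes in both libraries, at unlike levels. EIF5A had 7.61 and 12 tags 90 bp downstream of the nearest of its starts (chr17:7308368-7308558) and 6.18 and 8.18 tags at 132 bp from another (chr17:7307011-7307257). EIF5A2 had 4.28 and 3.39 tags 215.5 bp upstream (chr3:170908762-170908943), the lowest mean of the 21 genes (3.84 ± 0.629, SD, n = 2), although that region covers both E-boxes printed above. EIF6, which keeps the large subunit from joining too early, had 7.98 tags in replicate 2 only. EIF5A was higher than EIF5A2 in both libraries.

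In the order of means, EIF4B (23.3 tags), EIF3E (15.95) and EIF4A3 (15.6) followed EIF2S1. EIF4A1, EIF3D, EIF4E, EIF2B5 and EEF1G lay between 14.3 and 12.9 tags with SDs of 4.73 to 9.67. EIF3H, EEF2, EEF1A1 and EIF5A followed at 11.2, 10.4, 10.1 and 9.81. The SDs contain the offset between replicates that most genes share, so they do not measure differences between genes. The order of neighbours was not tested. The other 8 genes with MYC in both libraries had means of 3.84 to 7.48 tags.

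Each ATF4 peak at a translation factor gene was listed by a single library. In activated replicate 1 there were 3 genes with a peak (EEF1D, EIF3H and EIF4G1), beside 3.59% of all protein-coding genes, and in activated replicate 2 there were 2 (EIF3I and EIF4G3), beside 6.61%. In control replicates 1 and 2 there were 0 and 1 (EIF4H), beside 2.5% and 4.59% of all genes. The number of genes per library was 2.5 ± 0.707 in activated and 0.5 ± 0.707 in control cells (SD, n = 2 each), and the difference of 2 gave p = 0.33 in a two-sided exact permutation test, the smallest p that 2 against 2 libraries allow. Over any ATF4 library, 6 of the 45 genes had a peak, the same share as the 13.3% of all genes.

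None of these 6 peaks lay in a region listed by more than 1 ATF4 library, and none overlapped a MYC region. EIF3I, a core eIF3 subunit, had 4.22 tags (21 reads) in activated replicate 2, 333 bp downstream of its start (chr1:32222638-32222842), 246 bp from a MYC region and 387 bp from the end of the neighbouring TMEM234. EEF1D had 5.21 tags (13 reads) inside the gene (chr8:143591845-143592015), and EIF3H 4.41 tags (11 reads) inside the gene (chr8:116743251-116743421), both in activated replicate 1.

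EIF4G1 had 4.41 tags (11 reads) in activated replicate 1, 2074 bp past the gene and inside FAM131A (chr3:184337347-184337517). EIF4G3 had 3.01 tags (15 reads) in activated replicate 2, deep inside the gene (chr1:20834216-20834420). EIF4H had 3.58 tags (18 reads) in control replicate 2, 3698 bp outside the gene (chr7:74200688-74200900). Over the background library, the peaks of EEF1D, EIF3H and EIF4G1 had folds of 5.64, 3.82 and 3.18, and all peaks of activated replicate 1 a median of 5.21. Those of EIF4G3 and EIF3I had 4.35 and 2.61, with a median of 4.57 in activated replicate 2, and that of EIF4H had 2.58, with a median of 3.44 in control replicate 2. In tags, EEF1D and EIF3I lay above the medians of their libraries (4.81 and 3.62) and the other 4 below (the median of control replicate 2 was 3.78). At this depth no ATF4 binding shared by both activated libraries was detectable at any of the 45 genes, the eIF2 and eIF2B genes of the pathway that controls ATF4 included.

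ATF4 signal in activated over control cells could be tested where each of the 4 ATF4 libraries had listed a peak, at 105 regions, with limma on log2(tags + 1). Of these, 39 (37.1%) were higher in activated cells and 0 (0%) lower at a Benjamini-Hochberg adjusted p under 0.05. At an unadjusted p under 0.05, 57 were higher and 0 lower. The fit pooled the error of each region over all 105 regions of the same 4 libraries. Its p-values therefore do not measure how a region varies between libraries, and a shift of a whole library enters every region. With each library centred on its median, 0 were higher and 9 lower, and with the replicate number as a block 0 passed in either direction. None of the 105 belonged to a translation factor gene, so no ATF4 change at these genes was tested. An ATF4 peak in both activated libraries and a MYC peak in both libraries were listed at 0 of the 45 genes, beside 0.873% of all genes. For this count the peaks lay anywhere within 5 kb of the gene and did not have to overlap. An ATF4 region overlapping a MYC region was also found at 0 of the 45.

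Other genes of translation that are not among the 45 were counted the same way. Of 28, 12 (42.9%) had MYC in both libraries, beside 24.7% of all genes: ABCE1 and GSPT1 of termination and recycling, PABPC1, the poly(A)-binding protein, EIF2A, EEF1E1, EEFSEC of selenocysteine insertion, DPH2 and DPH5 of the diphthamide pathway that modifies eEF2, and MTIF2, MTIF3, TSFM and TUFM of mitochondrial translation. Replicate 2 listed 25 of the 28 (89.3%), beside 54.5% of all genes. The median over the 12 was 10.9 tags, against 10.4 for the 21 translation factors and 7.88 for all genes with MYC in both. EEF1E1, a scaffold protein of the tRNA synthetase complex, was the 1 gene of the 28 with ATF4 in both activated libraries.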

How the data were processed

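The 6 peak lists were used as deposited, 1 per library; the IgG library was not analysed here as a list of its own. Reads were aligned with Bowtie 0.12.9 and peaks called with HOMER on hg38, per the submitters' processing notes, and the settings are not given in the sources used here. Per the file headers, the normalized tag count is the authors' signal per peak, on a scale of 10 M per library, the fold is their ratio to a background library, and the total tags of replicate 1 are a whole-number count. The constant steps between low tag counts (within 0.01 tags) gave the depth. Genes were the protein-coding genes of GRCh38.p14, and starts and sequences came from RefSeq promoter windows. Peaks overlapping by at least 1 bp were joined per factor. ATF4 regions with a peak in all 4 libraries were tested with limma 3.58.1 (trend, log2(tags + 1), Benjamini-Hochberg, 0.05). The fit was also run on simulated data with larger changes than those seen and no shift of whole libraries. That run therefore does not bear on the result with centred libraries. Numbers per library were compared by exact permutation. The planned count test was not run, because the replicate 2 lists hold scaled totals. Genes named with all values are the 12 with the highest mean MYC value, all genes with ATF4 and the paralog groups; others outside this rule were named after their values were seen. Members and lists were chosen with earlier results of these data known. Alternatives were other windows, thresholds, scalings, left-out libraries and the replicate block.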

Additional observations from a re-analysis of the deposited data

How the results depend on the processing

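The number of translation factor genes with MYC in both libraries was 21. It was 14 to 20 with narrower windows, a 4-fold minimum over background or a common lowest tag count. With the 4-fold minimum it was 19, as EIF4A2 and EIF5B dropped out. The share of all genes was not counted under those settings, so whether the translation factor genes stayed above it is not known. Counted in 1 library the number was 22 without MYC replicate 2, beside 25.9% of all genes, and 40 without MYC replicate 1, beside 54.5%. The median MYC value of 10.4 tags became 15.6 when all peaks of a gene were summed and 10.1 without the EIF2S1 peaks inside the gene (chosen after seeing the data). With 1 library it was 7.13 over the 22 genes of replicate 1 and 7.98 over the 40 genes of replicate 2. These are other sets of genes: over the same 21 genes the medians were 7.13 and 12.6. Genes with ATF4 in the activated libraries numbered 0 in both and 2 to 3 with a library left out. The activated minus control difference of 2 genes per library fell to 0.5 with a common lowest tag count (exact permutation p = 1) and was 1.5 to 2.5 with a library left out; with the replicate block it stayed 2 (p = 0.5). ATF4 regions that were higher after activation, 39 of 105 by limma, numbered 34 to 39 with other pseudocounts, filters or merging. They numbered 0 with the replicate block (smallest adjusted p 0.115), 0 with any of the 4 libraries left out (smallest adjusted p 0.0751 to 0.198; the lone library of an arm is assumed to vary like the other arm) and 0 with libraries centred on their medians, when 9 were lower and the median log2 change was -0.11 instead of 0.54; the cause was not tested. Same-numbered libraries deviated together with r = 0.0976 over the 105 regions, so the numbers are not shown to pair them. Of the 12 genes with the highest MYC means, EIF4A3 and EIF2B5 had no value with the 1 kb window or inside the span, EEF1G had 8.87 tags in both (12.9 before), and EIF3H had 6.56 and EIF4A1 10.7 inside the span (11.2 and 14.3 before). EEF1A1 had 8.175 tags with the 4-fold minimum over background (10.08 before). EIF2S1 had 8.92 without its peaks inside the gene (24.35 before). With 2 libraries the spread is too wide to show that a value held. Depth limits every count of a gene without a peak.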
